A study of Mus musculus with 26 samples.

Results

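The collagen genes of MaTAR25 knockout and control 4T1 cells are described here, from the RNA-seq counts and, for peaks inside these genes, from the ChIRP-seq peak lists. Protein-coding genes whose symbol is Col, a number, the letter a and a number were taken, 44 genes of the 45318 in the count files, and those with a mean of at least 0.5 CPM (a gene's counts scaled to the size of the library) in any group were kept, which left 22. The mouse line 4T1, from a BALB/c mammary tumor, is a triple-negative carcinoma line, and MaTAR25 is a long noncoding RNA of the nucleus. The control group holds 2 libraries labelled wild type, from cells given a guide RNA against Renilla luciferase. KO1 holds 3 and KO2 holds 4 libraries labelled MaTAR25-/-, in which CRISPR/Cas9 and a pair of guides removed a stretch over the transcription start site. Control and knockout cells were grown from single cells, so each knockout group was 1 clone as the study describes it, and what belongs to the deletion and what belongs to the clone cannot be told apart. The ChIRP-seq cells were wild type 4T1 (BALB/c) and NDL mammary tumor cells of strain FVB. The genotype label of the NDL cells is MMTV-PyMT, although the study describes NDL as MMTV-Neu-NDL. Its supplement calls the cells of the NDL list cNeu, a name its methods give to a cell line, so whether they were primary cells is not settled. The RNA-seq cells grew in DMEM with serum, without other treatment, and whether the libraries of a group came from separate cultures is not given in the labels, so p-values measure the spread between these libraries only.

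Collagens are secreted matrix proteins built of chains that wind around each other in a helix, and each type uses its own set of chains. Type IV forms the sheet of basement membranes, and fibrillar types (such as I, V, XI and XXVII) build cable-like fibrils. FACIT types (IX, XII, XVI and XX here) are associated with fibrils, and type VII anchors basement membranes to the tissue below. The multiplexins XV and XVIII carry sugar chains and lie in or next to basement membranes. Type VIII forms short-chain networks, type VI forms beaded filaments, and type XVII spans the plasma membrane of epithelial cells. Carcinoma cells are epithelial and add to the basement membrane, while most fibrillar collagen of a tumor comes from fibroblasts.

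Each library held 25367211 to 61110585 counts on genes. Control libraries held 35 and 30 counts of MaTAR25 itself, and the 7 KO libraries held 0 to 11. The summed CPM of 6 epithelial markers was 2813 to 2971 in control, 2339 to 3843 in KO1 and 1411 to 2866 in KO2, with Krt5 at 0. Among them, Cdh1 passed the test described below as lower in KO and KO2, and Krt8 as higher in KO1. The fibroblast markers Dcn, Lum and Thy1 were at 0 in every library, and Pdgfrb had at most 1 count. The 8 fibroblast markers summed to 21.6 to 24.0 CPM in control, 37.0 to 70.3 in KO1 and 39.3 to 94.4 in KO2, mostly Pdgfra and S100a4 (in KO, S100a4 passed the test described below as higher and Fap as lower). The 5 leukocyte markers summed to 3.20 to 4.24 CPM in control, 11.4 to 28.4 in KO1 and 1.77 to 20.2 in KO2, mostly Cd68, which passed as higher in KO1, and the 5 endothelial markers to at most 1.77 CPM, with Cdh5 called higher in KO2. The part of these shifts in the collagen results was not tested. Within groups the libraries correlated across genes at r = 0.9958 in control, 0.987 to 0.992 in KO1 and 0.960 to 0.979 in KO2, so KO2 varied most.

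Of the 22 collagen genes, 14 had a mean of at least 0.5 CPM in all 3 groups. The other 8 (Col1a1, Col1a2, Col4a4, Col6a2, Col8a2, Col15a1, Col17a1 and Col27a1) were kept through 1 or 2 groups only, and differences among them are partly fixed by that choice. The gene just inside the limit was Col1a2 (0.504 CPM in KO1) and the one just outside was Col2a1 (0.420 CPM in KO2). Another 5 genes, Col3a1, Col11a1, Col13a1, Col19a1 and Col26a1, had 0 counts in every library. Per kb of exon, a scale on which genes can be set side by side, the highest control levels were those of Col4a1 (87.5 CPM per kb), Col4a2 (61.8), Col7a1 (42.0), Col18a1 (35.6), Col16a1 (28.3) and Col8a1 (22.2).

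**Figure D1:**
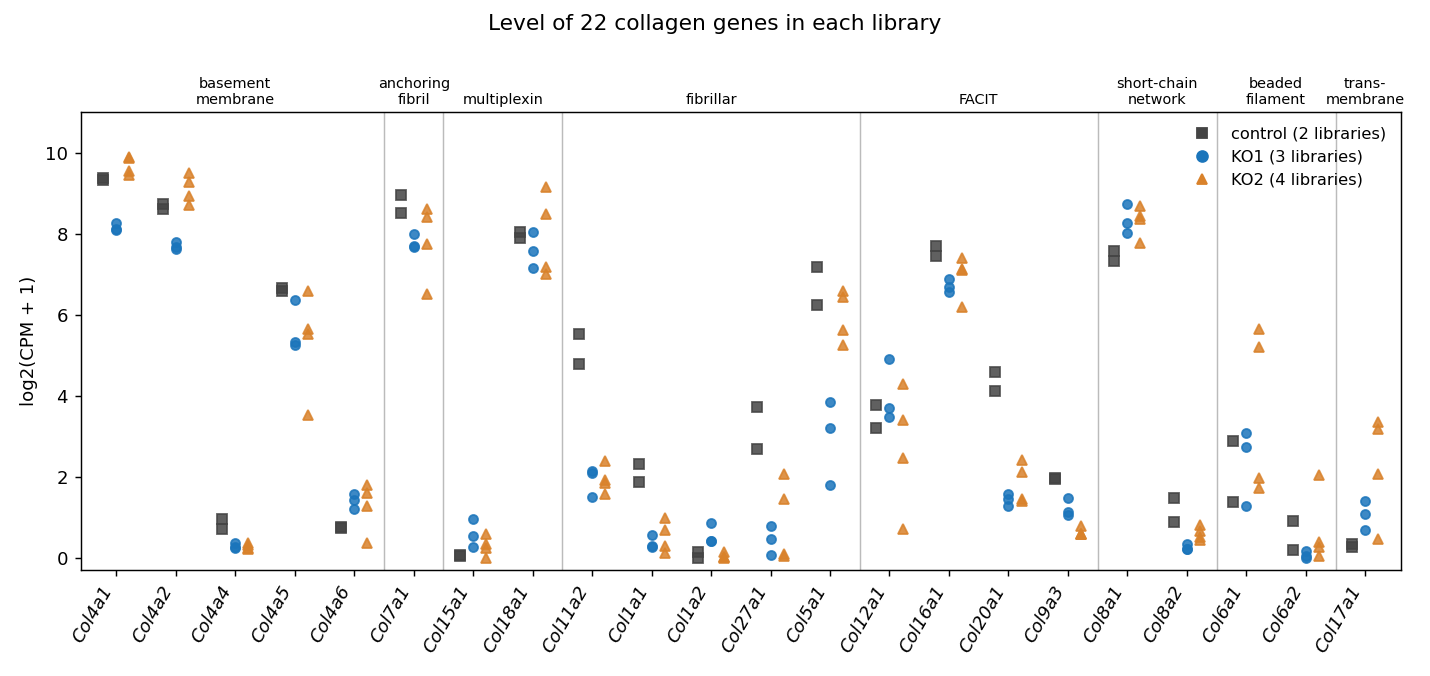
Level of each of the 22 collagen genes on the vertical axis as log2(CPM + 1), with genes on the horizontal axis ordered by class and 1 point for each of the 2 control, 3 KO1 and 4 KO2 libraries. Points of Col11a2 and Col20a1 in KO1 and KO2 lie below both control points, and for Col4a1 and Col4a2 only the KO1 points do.

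Several types had RNA for only part of their chains. Type V was Col5a1 (12.9 CPM per kb in control) with Col5a2 and Col5a3 below 0.1 CPM in each group, type XI was Col11a2 without Col11a1, and type IX was Col9a3 with Col9a1 and Col9a2 below 0.1 CPM in each group. Col1a1, at 0.506 CPM per kb in control, stood above Col1a2 at 0.00441. Type VI had Col6a1 (0.911 CPM per kb in control) and little Col6a2 (0.0632), with Col6a3 at no more than 0.0561 CPM in any group. Only type IV had its main pair of chains at like levels: the ratio of Col4a1 to Col4a2 per kb was 1.17 to 1.58 over the 9 libraries.

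Summed over the 44 genes, the collagen level was 329 and 307 CPM per kb in control, against 181, 176 and 211 for KO1 and 378, 345, 259 and 410.4 for KO2. All 3 KO1 libraries were below both controls, and KO2 libraries lay on both sides of them. Basement membrane genes made up 48.4 and 55.0% of this sum in control, 38.3 to 43.6% in KO1 and 44.9 to 69.2% in KO2. The fibrillar share was 7.48 and 4.57% in control, 0.436 to 1.27% in KO1 and 1.85 to 2.92% in KO2, below both controls in all 7 KO libraries. The short-chain share ran the other way, with 6.28 and 7.92% in control and 10.7 to 25.7% in the KO libraries.

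**Figure D2:**
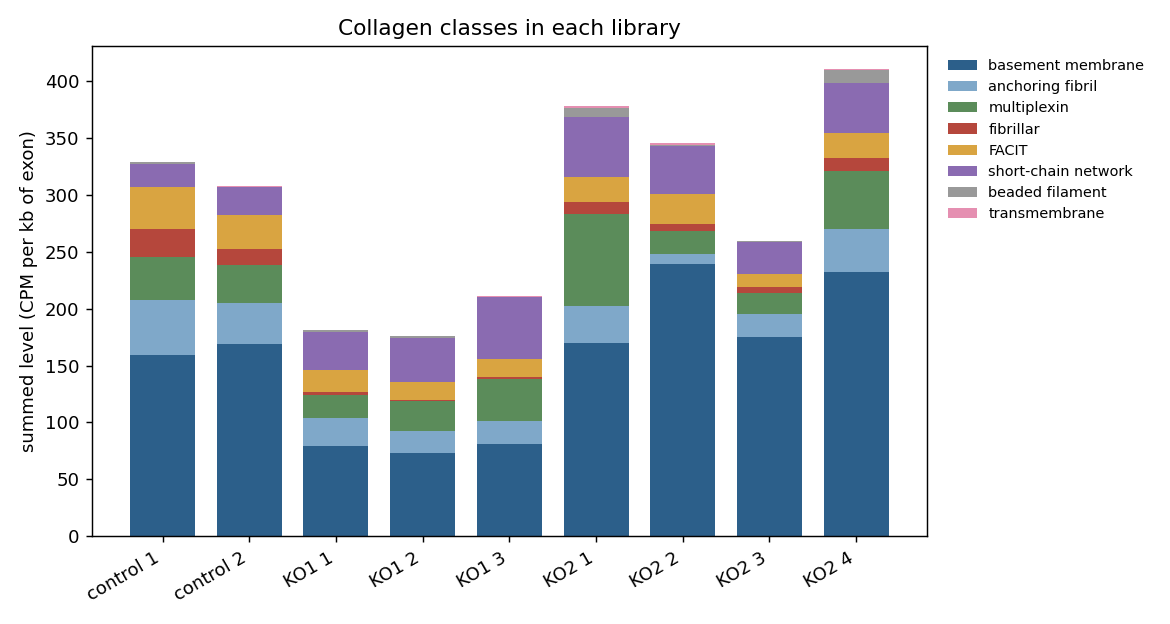
Summed collagen level in CPM per kb of exon (vertical axis) in each of the 9 libraries (horizontal axis), stacked by class. The KO1 columns reach 176 to 211 and the control columns 307 and 329, and the basement membrane segment is the largest in every library.

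The main test was edgeR's quasi-likelihood test on the counts, with Benjamini-Hochberg adjustment over the 15023 genes tested and a call at an adjusted p under 0.1, and log2 fold changes are given with its standard error (SE). In KO against control, 2 collagen genes rose and 7 fell among the 22, beside 11.9 and 10.7% of all genes tested. In KO1 against control, 3 rose and 11 fell, beside 15.9 and 15.7% of all genes. In KO2 against control, 2 rose and 6 fell, beside 16.5 and 15.0%. Among the 14 genes that reached the level in all 3 groups, 1 rose and 3 fell in KO, 1 rose and 7 fell in KO1, and 1 rose and 3 fell in KO2. The median log2 fold change of the 22 was -0.41 in KO, -0.98 in KO1 and -0.49 in KO2, while the medians over all genes tested were 0.06, 0.02 and 0.03. With either control library left out, 1 control library remains, and fewer genes passed against control, both among the 22 and over all genes. Whether this came from the number of controls or from the library left out was not tested.

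Both clones are compared with the same 2 control libraries, so that a shared direction is not independent evidence. The 11 genes that fell in KO1 were Col1a1, Col4a1, Col4a2, Col4a4, Col5a1, Col8a2, Col9a3, Col11a2, Col16a1, Col20a1 and Col27a1, and Col1a2, Col8a1 and Col15a1 rose there. In KO2, Col1a1, Col4a4, Col8a2, Col9a3, Col11a2 and Col20a1 fell, and Col8a1 and Col17a1 rose. Whether the clones differed was tested directly in KO2 against KO1: 4 genes were higher in KO2 (Col4a1, Col4a2, Col5a1 and Col8a2) and 2 were lower (Col1a2 and Col9a3), beside 10.2 and 9.43% of all genes. The other 7 genes (Col4a5, Col4a6, Col6a1, Col6a2, Col7a1, Col12a1 and Col18a1) passed in none of the 4 comparisons of the main test.

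**Figure D3:**
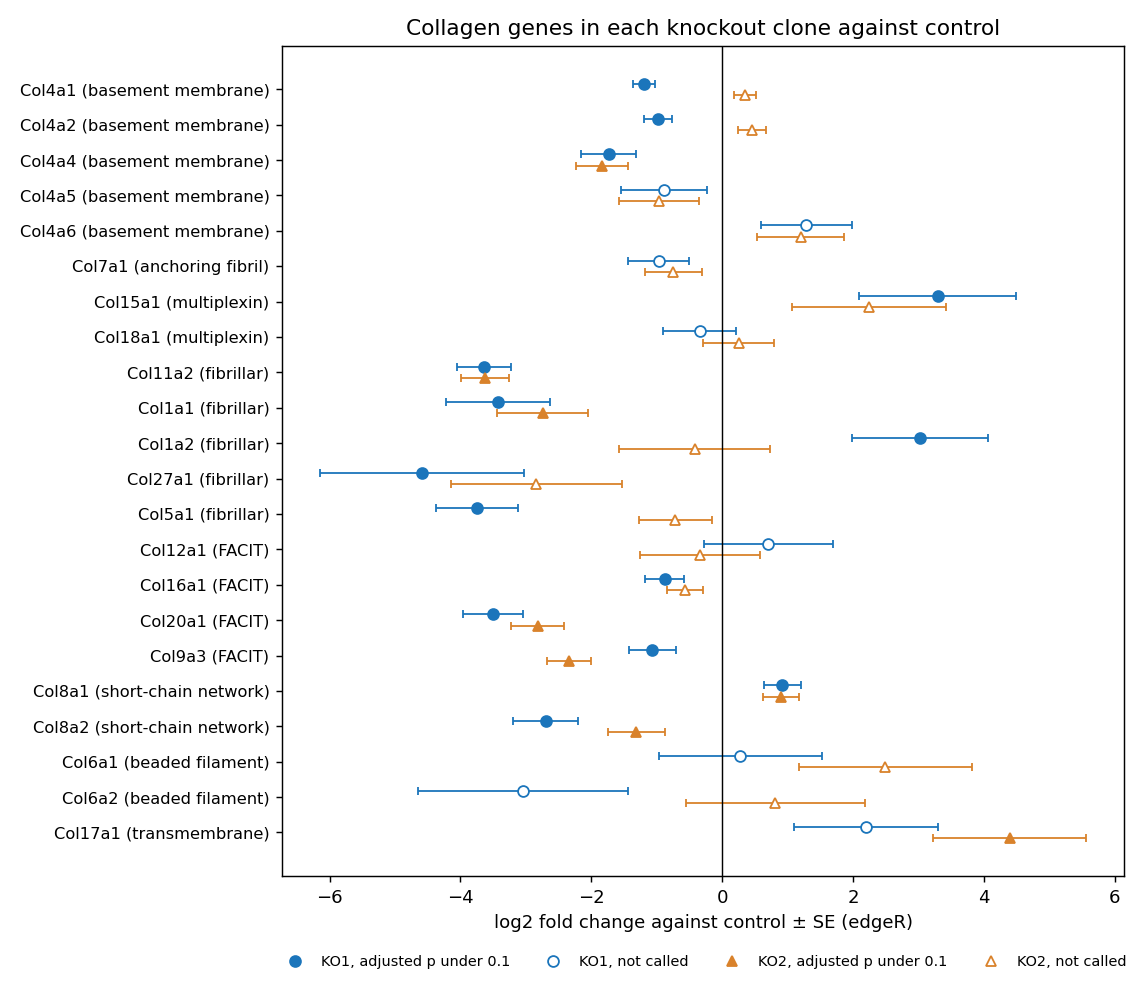
Log2 fold change against control (horizontal axis) with its standard error for the 22 collagen genes (vertical axis, by class) in KO1 (circles) and KO2 (triangles), filled where the adjusted p was under 0.1. KO1 and KO2 lie on opposite sides of 0 for Col4a1 and Col4a2 and close together for Col11a2 and Col8a1.

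Among basement membrane collagens, the clones parted at the main type IV pair. Col4a1 and Col4a2, whose chains together form the common type IV network, lie head to head at chr8:11198423-11312826 (minus strand) and chr8:11312805-11449287 (plus strand) of GRCm38, with 22 bases of exon in common. Col4a1 stood at 640.1 and 667 CPM in control, at 274.5, 272 and 309 CPM in the KO1 clone, and at 745, 957, 699.7 and 933 CPM in the KO2 clone. All KO1 libraries were below both controls, and all KO2 libraries were above them. The log2 fold change was -1.20 ± 0.17 (SE, adjusted p = 0.00189) in KO1 and 0.35 ± 0.16 (SE, adjusted p = 0.151) in KO2, and KO2 exceeded KO1 by 1.55 ± 0.15 (SE, adjusted p = 0.00119).

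Col4a2 stood at 391 and 427 CPM in control, at 197, 202 and 221 CPM in the KO1 clone, and at 418, 723, 486 and 615 CPM in the KO2 clone. Again each KO1 library was below both controls, and 3 of 4 KO2 libraries were above both. The change was -0.99 ± 0.21 (SE, adjusted p = 0.0115) in KO1, a decrease, and 0.45 ± 0.21 (SE, adjusted p = 0.15) in KO2, which did not pass. The difference of KO2 from KO1 was 1.44 ± 0.19 (SE, adjusted p = 0.00427). In the comparison of all KO libraries with control, these opposite values left -0.13 ± 0.50 for Col4a1 and -0.00 ± 0.49 for Col4a2 (adjusted p = 0.891 and 0.998). The mean of the clone changes in the fit with 3 groups gave -0.42 for Col4a1, which passed (adjusted p = 0.0615). For Col4a2 it gave -0.27 (adjusted p = 0.328). The KO1 decreases of this pair and their differences from KO2 passed under each alternative tried.

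**Figure D4:**
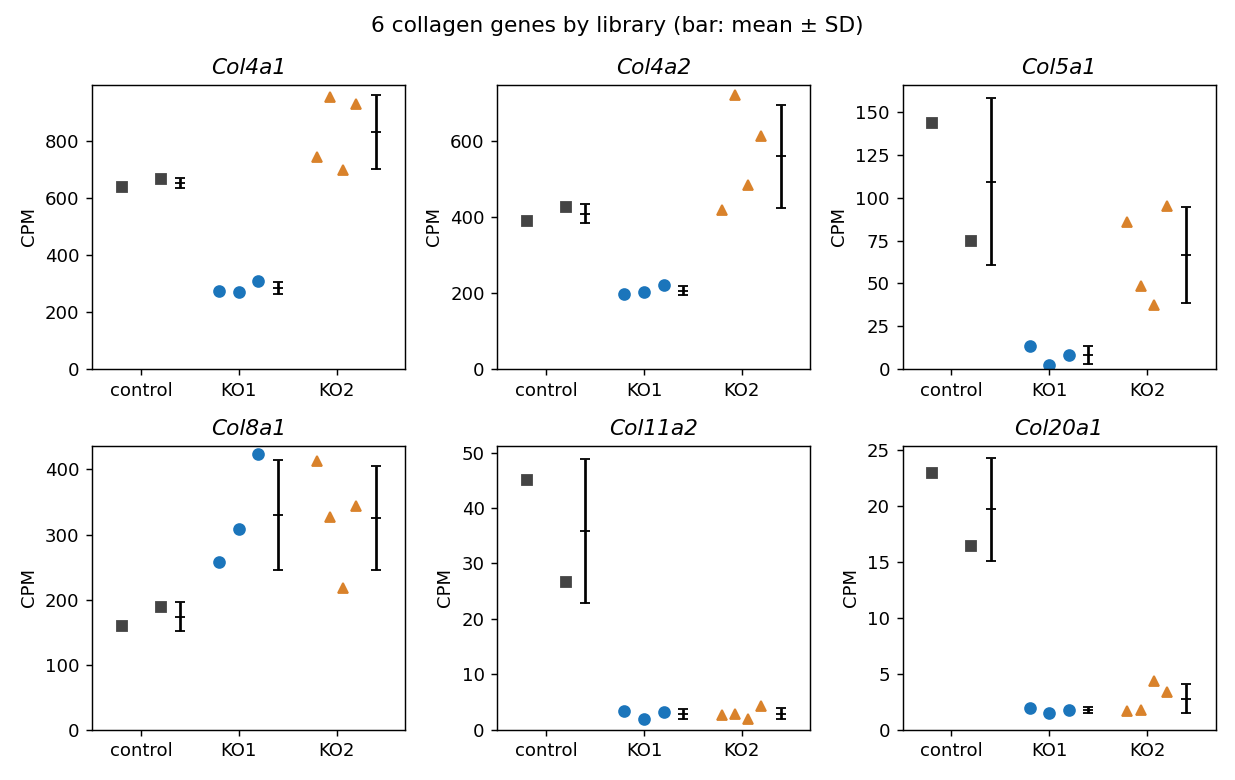
CPM (vertical axis, from 0) of 6 collagen genes in each control, KO1 and KO2 library, with the group mean and SD as a bar beside the points. Col4a1, Col4a2 and Col5a1 are low in KO1 alone, Col11a2 and Col20a1 are low in both clones, and each KO library of Col8a1 is above both controls.

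The minor type IV chains differed from this pair. Col4a4, a chain of the network of specialised basement membranes such as that of the kidney, stood at 0.944 and 0.640 CPM in control, at 0.287, 0.199 and 0.216 CPM in the KO1 clone, and at 0.167, 0.295, 0.249 and 0.184 CPM in the KO2 clone, on 6 to 43 counts a library. Its KO libraries all lay below both controls, with a change of -1.73 ± 0.42 (SE, adjusted p = 0.018) in KO1 and -1.84 ± 0.40 (SE, adjusted p = 0.0115) in KO2. Both calls were lost without control replicate 1 (adjusted p = 0.195 and 0.163). Col4a5 and Col4a6, neighbours on the X chromosome, did not pass in the main test. Both passed in KO1 when only the control and KO1 libraries were fitted, Col4a6 also passed against control in KO, KO1 and KO2 without KO2 replicate 2, and Col4a5 in KO2 without KO2 replicate 4. Col4a5 was 97.8 ± 3.40 CPM (SD, n = 2) in control, 52.7 ± 25.2 (n = 3) in KO1 and 50.0 ± 34.5 (n = 4) in KO2, and Col4a6 was 0.686 ± 0.0221, 1.68 ± 0.328 and 1.57 ± 0.955 CPM.

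Col7a1, the chain of anchoring fibrils, stood at 498.5 and 366 CPM in control, at 254, 201 and 206 CPM in the KO1 clone, and at 337, 90.2, 213.5 and 388 CPM in the KO2 clone. The KO1 libraries were below both controls, but 1 KO2 library was between them and KO2 spread from 90.2 to 388 CPM. The changes of -0.97 ± 0.47 (SE, adjusted p = 0.163) in KO1 and -0.75 ± 0.44 (SE, adjusted p = 0.245) in KO2 did not pass. KO1 did pass when only the control and KO1 libraries were fitted (adjusted p = 0.0047) and without KO2 replicate 2 (adjusted p = 0.0214).

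Of the multiplexins, Col18a1, whose end fragment is endostatin, stood at 264 and 235 CPM in control, at 142, 189 and 261 CPM in the KO1 clone, and at 564, 143, 128 and 356 CPM in the KO2 clone. KO2 libraries 1 and 4 were above both controls and libraries 2 and 3 below them, so that the KO2 change of 0.25 ± 0.54 (SE, adjusted p = 0.766) was within the spread, as was -0.34 ± 0.56 (SE, adjusted p = 0.697) in KO1. Without KO2 replicate 1 the KO2 value was -0.26. Col15a1, the other multiplexin, was near the detection limit, at 0.0439 and 0.0610 CPM in control, at 0.207, 0.464 and 0.947 CPM in the KO1 clone, and at 0.279, 0, 0.520 and 0.184 CPM in the KO2 clone, with 2 counts in each control. All KO1 libraries exceeded the controls, with a change of 3.29 ± 1.20 (SE, adjusted p = 0.0761), and KO2 gave 2.25 ± 1.18 (SE, adjusted p = 0.196). The KO1 call was lost without either control library (adjusted p = 0.328 and 0.259) or without KO1 replicate 2 or 3 (0.122 and 0.195).

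All 5 fibrillar members passed in KO1, 4 of them as lower, where 15.9% of all genes tested rose and 15.7% fell. Only Col5a1 and Col11a2 of these reached the level in all 3 groups. For Col1a1, Col1a2 and Col27a1 the KO1 calls are partly fixed by how members were chosen. Col11a2, a chain of the fibrils of cartilage, showed the steadiest decrease. It stood at 45.1 and 26.6 CPM in control, at 3.44, 1.86 and 3.27 CPM in the KO1 clone, and at 2.59, 2.78, 2.01 and 4.25 CPM in the KO2 clone, and each KO library was far below the lower control. The changes were -3.64 ± 0.41 (SE, adjusted p = 0.000918) in KO1, -3.62 ± 0.37 (SE, adjusted p = 0.000626) in KO2 and -3.63 ± 0.31 (SE, adjusted p = 0.000473) in KO, and they passed under each alternative tried.

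Col1a1, the major chain of type I, the main fibril of connective tissue, stood at 3.99 and 2.65 CPM in control, at 0.223, 0.497 and 0.216 CPM in the KO1 clone, and at 0.223, 0.0842, 0.995 and 0.613 CPM in the KO2 clone. All KO libraries were below both controls, on 2 to 44 counts against 182 and 87, and the changes were -3.43 ± 0.79 (SE, adjusted p = 0.0149) and -2.75 ± 0.70 (SE, adjusted p = 0.0216). Without control replicate 1 the adjusted p values were 0.106 and 0.16. Its partner chain Col1a2 moved apart from it, standing at 0.110 and 0 CPM in control, at 0.828, 0.332 and 0.351 CPM in the KO1 clone, and at 0.0279, 0, 0.113 and 0.0204 CPM in the KO2 clone. Only KO1 libraries had more than 5 counts, the change was 3.02 ± 1.05 (SE, adjusted p = 0.0644) in KO1 and -0.42 ± 1.16 (SE, adjusted p = 0.824) in KO2, and the KO2 against KO1 change was -3.44 ± 0.84 (SE, adjusted p = 0.0321). The KO1 call was lost with DESeq2 (adjusted p = 0.122) and without control replicate 2 (0.296), and both calls were lost without KO1 replicate 1 (0.173 and 0.126).

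Col5a1, a chain of the type V collagen that sets fibril width, differed between the clones. It stood at 144 and 74.9 CPM in control, at 13.4, 2.52 and 8.25 CPM in the KO1 clone, and at 85.8, 48.4, 37.3 and 95.4 CPM in the KO2 clone. KO1 libraries were all below the other 6, and KO2 libraries overlapped the controls. The change was -3.75 ± 0.63 (SE, adjusted p = 0.00406) in KO1 and -0.71 ± 0.56 (SE, adjusted p = 0.384) in KO2, and KO2 exceeded KO1 by 3.04 ± 0.57 (SE, adjusted p = 0.0141). The KO1 decrease and the difference between the clones passed under each alternative tried, and in KO the value was -1.40 ± 0.95 (SE, adjusted p = 0.348), although the mean of the clone changes in the fit with 3 groups gave -2.23 (adjusted p = 0.0098).

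Col27a1, a fibrillar type of cartilage, stood at 5.51 and 12.3 CPM in control, at 0.0478, 0.730 and 0.379 CPM in the KO1 clone, and at 1.76, 3.24, 0.0678 and 0.0409 CPM in the KO2 clone. All KO libraries were below both controls, KO2 falling into 2 libraries with 63 and 77 counts and 2 with 3 and 2. The changes were -4.59 ± 1.56 (SE, adjusted p = 0.0604) in KO1, -2.84 ± 1.31 (SE, adjusted p = 0.148) in KO2 and -3.35 ± 1.22 (SE, adjusted p = 0.0932) in KO. Leaving out either control library ended the KO1 call (adjusted p = 0.14 and 0.227) and the KO call (0.246 and 0.443), and leaving out KO1 replicate 1 or 3 ended the KO1 call too (0.148 and 0.154). In all, the KO call held in 7 of 15 alternatives and the KO1 call in 9.

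Of the FACIT collagens, Col20a1 fell most. It stood at 22.9 and 16.4 CPM in control, at 1.98, 1.46 and 1.76 CPM in the KO1 clone, and at 1.65, 1.73, 4.34 and 3.37 CPM in the KO2 clone, each KO library far below both controls. The changes of -3.50 ± 0.46 (SE, adjusted p = 0.00139) in KO1 and -2.82 ± 0.41 (SE, adjusted p = 0.00233) in KO2 passed under each alternative tried, as did -3.08 ± 0.40 (SE, adjusted p = 0.00182) in KO.

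Col9a3, a chain of the type IX collagen on cartilage fibrils, stood at 2.94 and 2.87 CPM in control, at 1.82, 1.09 and 1.22 CPM in the KO1 clone, and at 0.502, 0.505, 0.520 and 0.736 CPM in the KO2 clone. The groups did not overlap, with KO2 lowest, and the changes were -1.07 ± 0.36 (SE, adjusted p = 0.0583) in KO1 and -2.35 ± 0.34 (SE, adjusted p = 0.00235) in KO2. The KO2 against KO1 change was -1.28 ± 0.31 (SE, adjusted p = 0.0316), a call lost without KO1 replicate 1 (adjusted p = 0.124). The KO1 call was lost without either control library (adjusted p = 0.25 and 0.221) or without KO1 replicate 2 or 3 (0.169 and 0.155). Col9a3 shares 234 bases of exon with Tcfl5 on the other strand, and the strand setting of the counting is not given, so reads there may belong to either gene. The next largest overlaps were those of Col5a1 with Gm13372 (113 bases) and 2810430I11Rik (99), both on the other strand. Col20a1 shares 79 bases with BX649560.1 on its own strand.

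Col16a1, the most abundant FACIT gene, stood at 207 and 175 CPM in control, at 117, 92.9 and 101.5 CPM in the KO1 clone, and at 138.5, 168, 72.0 and 137.5 CPM in the KO2 clone. All KO libraries were below both controls, but the change of -0.88 ± 0.29 (SE, adjusted p = 0.0556) in KO1 passed and -0.57 ± 0.28 (SE, adjusted p = 0.165) in KO2 did not. In KO the value was -0.694 ± 0.265 (SE, adjusted p = 0.107), which did not pass. The KO value passed with DESeq2 (adjusted p = 0.093) and with at least 10 counts in every library (0.0856). It also passed as the mean of the clone changes (0.0611), and both KO and KO2 passed without KO2 replicate 2. The KO1 call was lost without either control (adjusted p = 0.286 and 0.157) and without KO1 replicate 2 or 3 (0.149 and 0.132). Col12a1, found on fibrils of dense connective tissue, passed nowhere and was 10.5 ± 3.20 CPM in control, 17.2 ± 10.5 in KO1 and 8.37 ± 7.78 in KO2 (mean ± SD).

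The short-chain pair moved in opposite directions. Col8a1, a network collagen first known from endothelium and the cornea, stood at 159 and 189 CPM in control, at 258, 308 and 423 CPM in the KO1 clone, and at 412, 327, 218 and 343 CPM in the KO2 clone, each KO library above both controls. It rose by 0.92 ± 0.28 (SE, adjusted p = 0.043) in KO1 and 0.90 ± 0.27 (SE, adjusted p = 0.0404) in KO2 on the log2 scale. Without control replicate 1 the adjusted p was 0.247 in KO1 and 0.254 in KO2, without control replicate 2 it was 0.147 and 0.156, and without KO1 replicate 3 it was 0.125 in KO1.

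Its partner Col8a2 stood at 1.80 and 0.854 CPM in control, at 0.175, 0.166 and 0.270 CPM in the KO1 clone, and at 0.362, 0.589, 0.429 and 0.756 CPM in the KO2 clone, on 5 to 37 counts in the KO libraries and 82 and 28 in control. All KO libraries were below both controls, with -2.69 ± 0.50 (SE, adjusted p = 0.00608) in KO1 and -1.31 ± 0.44 (SE, adjusted p = 0.0586) in KO2, and KO2 exceeded KO1 by 1.38 ± 0.45 (SE, adjusted p = 0.0744). The KO1 decrease passed under each alternative. The KO2 call was lost with DESeq2 (adjusted p = 0.123), without control replicate 1 (0.541) and without KO2 replicate 1 (0.11), and the difference between the clones was lost in 9 of 15 alternatives.

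The beaded filament genes varied most among KO2 libraries. Col6a1 stood at 6.36 and 1.62 CPM in control, at 7.46, 5.64 and 1.43 CPM in the KO1 clone, and at 35.7, 2.90, 2.31 and 49.2 CPM in the KO2 clone, and KO2 libraries 1 and 4, the same 2 that were high for Col18a1, were above all others. Col6a2 was 0.526 ± 0.528 CPM in control, 0.0535 ± 0.0661 in KO1 and 0.920 ± 1.48 in KO2. Neither gene passed in the main test (adjusted p = 0.893 and 0.2 in KO1, 0.201 and 0.699 in KO2, 0.215 and 0.12 in KO2 against KO1). In KO2 against KO1, Col6a2 passed with DESeq2, with no filter on low counts and without KO2 replicate 2 or 3. Col6a1 passed there without KO2 replicate 3. In KO1 against control, Col6a2 passed without KO2 replicate 4.

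Col17a1, the transmembrane collagen of hemidesmosomes, which fix epithelial cells to the basement membrane, stood at 0.219 and 0.275 CPM in control, at 1.13, 0.630 and 1.65 CPM in the KO1 clone, and at 8.09, 9.30, 0.384 and 3.19 CPM in the KO2 clone. Each KO library was above both controls, on 9 and 10 control counts, but KO2 replicate 3 held 17 counts and the other KO2 libraries 156 to 290. The increase of 4.39 ± 1.17 (SE, adjusted p = 0.0261) in KO2 passed, and 2.20 ± 1.10 (SE, adjusted p = 0.176) in KO1 did not. The KO2 call was lost without control replicate 1 (adjusted p = 0.185) or 2 (0.164), and the KO call, at 3.80 ± 1.40 (SE, adjusted p = 0.0973), was lost in 9 of 15 alternatives. The other transmembrane collagens Col13a1, Col23a1 and Col25a1 did not reach 0.5 CPM.

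Genes that make, cross-link or bind collagens were then counted from lists of their symbols. For each list, the share over all genes tested in KO against control was 11.9% higher and 10.7% lower. Of 29 processing enzymes and chaperones, 24 were tested. In KO against control, only Crtap, a subunit of the prolyl 3-hydroxylation complex, passed as higher (log2 fold change 1.07, adjusted p = 0.0648, from 35.4 CPM in control to 71.6 in KO1 and 76.5 in KO2), and only Mia2, a factor of large-cargo export from the endoplasmic reticulum, as lower (-0.85, adjusted p = 0.0167). In KO1, 1 rose and 7 fell, beside 15.9 and 15.7% of all genes tested. In KO2, 6 rose and 1 fell, beside 16.5 and 15.0%. In KO2 against KO1, 10 were higher and 1 was lower, beside 10.2 and 9.43%. Among those 10, named after their values were seen, were Bmp1 and Adamts14, which cut the ends off procollagens. Bmp1 was 519 CPM in control, 219.9 in KO1 and 579.5 in KO2 (KO2 against KO1, 1.40, adjusted p = 0.0161), and Adamts14 was 75.3, 14.7 and 119 CPM (3.01, adjusted p = 0.00796). The 1 that was lower, also named after its value was seen, was Serpinh1, the collagen chaperone HSP47 (-0.75, adjusted p = 0.0379).

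Lysyl oxidases cross-link collagen and elastin. Of 5, 3 were tested, and Loxl1 (3.97, adjusted p = 0.0345) and Loxl3 (2.53, adjusted p = 0.0769) passed as higher in KO, while Loxl4, named after its values were seen, passed in KO2 (1.36, adjusted p = 0.025) and not in KO1 (0.56, adjusted p = 0.291). Mean levels of Loxl3 were 3.59 CPM in control, 19.9 in KO1 and 21.4 in KO2, and those of Loxl1 were 0.0549, 1.20 and 0.817 CPM. Lox and Loxl2 were too low to be tested.

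Of 10 collagen receptors 7 were tested, and Ddr2, a receptor tyrosine kinase for fibrillar collagen, was the 1 that passed in KO against control, as lower (-1.23, adjusted p = 0.0851, 423 CPM in control, 224 in KO1 and 147 in KO2). In KO1 0 rose and 3 fell, beside 15.9 and 15.7% of all genes tested, and in KO2 1 rose and 2 fell, beside 16.5 and 15.0%. Of 16 further basement membrane genes 11 were tested, with Sparc, a collagen-binding matricellular protein, higher (0.92, adjusted p = 0.0793) and the proteoglycan Agrn lower (-1.25, adjusted p = 0.0545) in KO.

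Of these 11 basement membrane genes, 1 rose and 4 fell in KO1, beside 15.9 and 15.7% of all genes tested. In KO2, 2 rose and 1 fell, beside 16.5 and 15.0%, and in KO2 against KO1, 3 were higher and 2 lower, beside 10.2 and 9.43%. Of 9 small leucine-rich and fibril-associated partners 5 were tested, and Postn, periostin, a matrix protein that binds type I collagen, passed as lower in KO (-3.53, adjusted p = 0.0271). Dcn, Lum and Fmod, which coat fibrils, were at 0 in every library.

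MaTAR25 chromatin contacts were read from ChIRP-seq, in which biotinylated oligos against the RNA pull down the chromatin it is bound to. The deposited lists hold peaks for even, odd and total oligo pools in 4T1 cells and for the total pool in NDL mammary tumor cells, each over pooled replicates, so no replicate test can be made. With peaks given to the gene of the nearest promoter, 15 of 22 collagen genes (68.2%) had a peak in both the odd and the even list, against 38.1% of 21578 protein-coding genes. The collagen genes are long, with a median of 78226 bases from start to end against 17636 for all, and the part of length in this share was not tested. With scores of at least 100 the count was 3 of 22, against 10.2% of genes. The even list has 8877 peaks on chromosome 2 and 0 on chromosome 3, where the odd list has 4454 and 3835, which touches Col5a1, Col9a3 and Col20a1. Without these chromosomes 14 of 19 collagen genes had a peak in both lists. The share of all genes was not counted without them, so this count has no background to be read against.

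Peaks of 2 independent pools at one place are a stricter measure. Of 53 odd-list peaks inside collagen genes, 14, in 9 genes, overlapped an even-list peak (26.4%, against 21.2% of all 61311 odd-list peaks), and 11 lay in all 4 lists (20.8%, against 16.5%). The middle 200 bases of the common stretch are shown for the 6 called genes that hold such a peak, the one with the highest odd-list score where there were several, as the sequences MaTAR25 chromatin was recovered from. They are read from the plus strand of GRCm38.p6, with GGTGG or its reverse complement CCACC in capitals, the motif of the protein PURB that the study links to MaTAR25.
Col4a1 chr8:11255216-11255415: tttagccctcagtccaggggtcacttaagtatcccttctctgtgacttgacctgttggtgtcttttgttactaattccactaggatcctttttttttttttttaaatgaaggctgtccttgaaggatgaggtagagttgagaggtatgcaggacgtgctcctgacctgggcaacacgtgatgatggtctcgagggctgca
Col4a4 chr1:82476755-82476954: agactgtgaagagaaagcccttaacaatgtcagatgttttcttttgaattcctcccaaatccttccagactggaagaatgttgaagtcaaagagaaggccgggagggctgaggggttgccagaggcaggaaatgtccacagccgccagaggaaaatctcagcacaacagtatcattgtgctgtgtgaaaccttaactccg
Col5a1 chr2:28012503-28012702: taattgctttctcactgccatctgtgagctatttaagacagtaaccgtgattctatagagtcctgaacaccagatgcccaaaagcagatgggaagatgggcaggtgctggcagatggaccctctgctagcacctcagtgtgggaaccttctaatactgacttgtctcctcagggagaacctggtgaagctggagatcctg
Col8a1 chr16:57737697-57737896: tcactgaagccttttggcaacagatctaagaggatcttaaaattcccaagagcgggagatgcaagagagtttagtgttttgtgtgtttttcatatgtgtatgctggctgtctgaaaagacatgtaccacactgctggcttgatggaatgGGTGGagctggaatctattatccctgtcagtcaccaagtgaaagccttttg
Col11a2 chr17:34061821-34062020: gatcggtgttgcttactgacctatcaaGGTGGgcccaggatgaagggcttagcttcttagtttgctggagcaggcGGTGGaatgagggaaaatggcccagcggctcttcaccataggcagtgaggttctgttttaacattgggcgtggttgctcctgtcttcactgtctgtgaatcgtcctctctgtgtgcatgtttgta
Col15a1 chr4:47294805-47295004: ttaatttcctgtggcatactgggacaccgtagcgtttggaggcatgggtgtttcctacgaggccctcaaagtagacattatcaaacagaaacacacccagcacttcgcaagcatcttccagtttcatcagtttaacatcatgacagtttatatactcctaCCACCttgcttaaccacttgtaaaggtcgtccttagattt
The stretches of Col4a1, Col4a4, Col8a1, Col11a2 and Col15a1 lie in introns by the GENCODE vM21 annotation, and that of Col5a1 reaches into a coding exon. The Col5a1 peak is on chromosome 2, where the even list holds 8877 peaks against 4454 in the odd list. The overlap counts were not repeated without that chromosome. The motif was present in 3 of the 6 (Col8a1, Col11a2 and Col15a1), and 37.6% of all 61311 odd-list peaks hold it in their middle 200 bases. A match is a description of the letters and not a binding site.

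The odd-list score was 181.9 at the Col4a4 peak, 180.4 at Col5a1 and 86.6 at Col15a1. It was 79.1 at Col4a1, 47.1 at Col11a2 and 37.7 at Col8a1. Scores of the overlapping even-list, 4T1 total-list and NDL peaks, in that order, ranked the 6 otherwise. They were 125.1, 191.1 and 129.5 at Col4a4, 53.2, 167.2 and 160.0 at Col5a1, and 20.2, 25.1 and 29.1 at Col15a1. At Col4a1 they were 109.7, 148.0 and 145.4, at Col11a2 53.4, 62.8 and 71.6, and at Col8a1 183.5, 212.7 and 180.0. These 6 genes differed in direction: Col4a4 and Col11a2 fell in both clones, Col8a1 rose in both, and of the others Col4a1 and Col5a1 fell in KO1 and Col15a1 rose in KO1, without passing in KO2. By nearest promoter, Col20a1 had 0 odd-list, 2 even-list and 3 total-list peaks in 4T1 and 2 in NDL. Col1a1 had 1 even-list and 1 NDL peak, and Col9a3 had 1 odd-list and 1 NDL peak.

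The promoters of the pair that fell most steadily, Col11a2 and Col20a1, are given from RefSeq (GRCm38.p6) as the 250 bases before the start, in the direction of the gene. TATAAA and GGGCGG, the letters of the TATA box and the GC box, are in capitals on either strand. A match is marked at any distance from the start and does not show a working box. The Col11a2 window ends at base 34039137, before the GENCODE vM21 gene start at 34039437. The Col20a1 window overlaps an exon of BX649560.1 in that annotation.
Col11a2 chr17:34038888-34039137: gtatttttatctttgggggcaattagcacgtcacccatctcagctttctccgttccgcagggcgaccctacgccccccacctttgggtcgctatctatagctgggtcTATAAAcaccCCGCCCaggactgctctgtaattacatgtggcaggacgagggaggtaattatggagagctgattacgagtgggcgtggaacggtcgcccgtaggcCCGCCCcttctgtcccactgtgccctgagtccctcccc
Col20a1 chr2:180986285-180986534: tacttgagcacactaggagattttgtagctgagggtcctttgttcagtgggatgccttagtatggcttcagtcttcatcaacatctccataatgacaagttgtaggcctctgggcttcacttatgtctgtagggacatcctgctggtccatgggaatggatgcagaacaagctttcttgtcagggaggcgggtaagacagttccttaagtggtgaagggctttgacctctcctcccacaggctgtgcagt
Col11a2 holds 1 TATAAA and 2 GGGCGG there, and Col20a1 holds neither. In windows from 250 bases before to 50 after the start, found for 19 of the 22 collagen genes, GGGCGG was present for 14 of 19 genes (73.7%) and for 38.2% of all 27025 genes, TATAAA for 2 of 19 (10.5%) and for 15.7%, CCAAT for 8 of 19 (42.1%) and for 41.1%, and GGTGG for 14 of 19 (73.7%) and for 62.7%. The median GC content was 60.3% in collagen promoters and 52.7% in all promoters, and its part in the GGGCGG share was not tested.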

How the data were processed

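RNA-seq of 2 control, 3 KO1 and 4 KO2 libraries was analysed, grouped by GEO's labels, with 25367211 to 61110585 counts per library on genes. Per the labels and the study's methods, the authors sequenced polyadenylated RNA, mapped single-end reads to GRCm38 with STAR and deposited whole-number counts per gene of GENCODE vM5 from HTSeq, without normalization. Whether counting used the strand is not stated, and 33.9 to 37.0% of all counts were assigned to no gene and left out. KO2 replicate 2 lists each gene 3 times, and each was used once. Of 45318 genes, 44671 were given a symbol, position and exon length from GENCODE vM21. For ChIRP-seq, the authors mapped reads with Bowtie2, and the deposited peak scores come from HOMER over pooled replicates against a Ppib pulldown, with a scaling not stated.

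Counts were tested in R 4.3.3 with edgeR 4.0.16 (TMM, filterByExpr, quasi-likelihood test) and Benjamini-Hochberg adjustment over 15023 genes at a threshold of 0.1, the threshold of the study. KO against control was a fit with 2 groups, and KO1, KO2 and their difference came from a fit with 3 groups, with biological coefficients of variation of 42.0 and 32.5%. The SE is the absolute log2 fold change divided by the square root of F. The study used DESeq2, here (1.42.0) an alternative. CPM are TMM-scaled, and counting error is small beside the spread between libraries except for genes of few counts. The script was tested on simulated counts with known changes. Further alternatives were RLE size factors, other filters, a threshold of 0.05, the replicate block, fits of the compared groups only, and each library left out. Figures were drawn with Matplotlib 3.10.9.

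The members, the gene lists and the tests were chosen with earlier results of these data known. Every collagen gene with a mean of 0.5 CPM in a group is named. Library values and tests are given for those called in any comparison and the 5 of highest control level per kb, and of each partner list at most 3 called genes of largest change in KO are named, apart from those said to be named after their values were seen.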

Additional observations from a re-analysis of the deposited data

Results flagged for a closer look

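Outlying libraries could be looked for in KO2 alone, the 1 group with 4 libraries, on log2(CPM + 1) and by the gap of the extreme library as a share of the group's range, with a limit of 0.829. Chance passes this limit in about 1 of 20 groups, and 2 of the 22 collagen genes did. Col6a2 was high in KO2 replicate 4 (gap 0.836 of the range), with 3.13 CPM against 0.042 to 0.307 in the other KO2 libraries. Col9a3 was high in the same library (gap 0.917), with 0.736 CPM against 0.502 to 0.520, so its range was small.

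The clones differed, by the edgeR test of KO2 against KO1, in 6 of the 22 collagen genes kept. On the log2 scale KO2 was higher by 1.55 for Col4a1, 1.44 for Col4a2, 3.04 for Col5a1 and 1.38 for Col8a2, and the values for Col1a2 and Col9a3, which were lower, were -3.44 and -1.28. Their adjusted p values were 0.00119, 0.00427, 0.0141, 0.0744, 0.0321 and 0.0316 in that order. The difference passed under each alternative for Col4a1, Col4a2 and Col5a1, and for the other 3 genes it was lost in at least 1. Fibrillar Col24a1, not kept because its highest group mean was 0.336 CPM in KO1, was tested too. It was higher in KO1 than in control (4.50, adjusted p = 0.0607) and lower in KO2 than in KO1 (-3.02, adjusted p = 0.0815).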

How the results depend on the processing

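With 2 control libraries and clones that stand for 1 deletion event each, the comparisons describe these cells. Few reads (under about 50 in most of the libraries meant) stand behind Col1a2, Col4a4, Col6a2 and Col15a1, behind Col1a1, Col8a2 and Col27a1 in KO, Col9a3 in KO2 and Col17a1 in control. Where 1 control library is left out, the remaining one is assumed to vary like the other groups.

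Of 856 recomputed log2 fold changes of single genes, 742 kept their direction and their side of the threshold, 87 no longer passed, 19 newly passed and 8 turned direction. With at least 10 counts in every library, which leaves 13 of the 22 genes, the calls were 5 in KO, 8 in KO1 and 4 in KO2 against control and 4 in KO2 against KO1. At an adjusted p under 0.05 the KO calls were 6 and the KO1 calls 9. With each library left out in turn, the calls ranged from 2 to 11 in KO, 7 to 16 in KO1, 3 to 12 in KO2 and 3 to 10 in KO2 against KO1, while those over all genes ranged from 462 to 3976, 1482 to 5661, 1366 to 5352 and 874 to 4077. Among collagen genes, the lowest counts came without control replicate 1 (KO, KO1 and KO2) and without KO1 replicate 1 (KO2 against KO1). The highest came without KO2 replicate 2 (against control) and KO2 replicate 3 (KO2 against KO1). Over all genes, the lowest count in KO2 against KO1 came without KO1 replicate 2. For KO1, 8 calls remained without control replicate 2 and 9 without KO1 replicate 3.

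The values that turned were of Col4a2 in KO against control, -0.00 in the main test, 0.004 with DESeq2, 0.003 with RLE size factors and -0.203 to 0.118 with a library left out, of Col1a2 in KO2 (-1.58 to 3.90 with a library left out) and of Col18a1 in KO2 (-0.26 to 0.51). None of these had passed. The cause of these changes was not tested.

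Replicate numbers do not pair the libraries: correlations of deviations of same-numbered libraries were -0.196 to 0.0559. With the replicate number as a block, in which KO2 replicate 4 has no partner and adds nothing, the calls were 4 in KO, 10 in KO1, 9 in KO2 and 5 in KO2 against KO1, with 1952, 3988, 3689 and 1736 over all genes. The Col8a1 calls were lost in KO, KO1 and KO2, those of Col9a3 and Col27a1 in KO and KO1, of Col8a2 and Col17a1 in KO, of Col15a1 and Col16a1 in KO1 and of Col8a2 in KO2 against KO1, and Col6a2 passed in KO1 and Col4a5 and Col7a1 in KO2. Fitted with control alone, KO1 gave 18 calls of 7752 over all genes, with Col4a5, Col4a6, Col7a1 and Col17a1 added.

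The ChIRP-seq count of 15 collagen genes was also 15 with peaks inside the gene and 3 with a score of at least 100. A group mean of at least 1 CPM would keep 18 genes.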
